A study of Mus musculus with 42 samples.

Results

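Transcript levels of 10 RNAs were examined in mouse kidney and liver: the long noncoding RNAs Malat1 and Neat1 and the messenger RNAs of Cpsf6, Khdc4, Pnisr, Crebzf, Zfp697, Ogt, Wsb1 and Ttc14. They are 10 of the 43629 genes of the count table, and they were picked because their kidney levels were lower than control under several of the compounds fed to the mice. Their kidney differences between compounds and control are therefore a description and carry no test here. All 10 passed the filter on low counts in kidney, 9 passed it in liver, where Zfp697 did not, and all 10 passed it over both tissues together, Zfp697 through its kidney level.

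The mice were males of UM-HET3, a stock in which each mouse descends from 4 inbred strains. They ate a diet with 1 compound for 1 month, from 3 months of age, and kidney and liver were taken at 4 months. Kidney libraries came from mice fed 30 ppm of AS-703026, 6.3 ppm of ascorbyl-palmitate, 20 ppm of AZD8055, 75 ppm of enzastaurin, 50 ppm of GDC-0941 or 10 ppm of KU0063794 (n = 4 per compound), and from 6 littermates on the unsupplemented diet. Livers were sequenced for 3 of the compounds, GDC-0941, AS-703026 and enzastaurin (n = 4 per compound), and liver controls were not analysed here. AS-703026 inhibits the kinase MEK, AZD8055 and KU0063794 inhibit the kinase mTOR, enzastaurin inhibits protein kinase C, GDC-0941 inhibits PI3 kinase, and ascorbyl-palmitate is a fat-soluble ester of vitamin C. The series calls the libraries biological replicates and pairs no kidney with a liver by animal. RNA was sequenced by CEL-seq, which primes on poly(A) stretches and reads the 3′ ends of transcripts.

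Malat1 and Neat1 stay in the nucleus. Malat1 gathers in nuclear speckles, where splicing factors are stored, and Neat1 is the scaffold of paraspeckles, bodies in which some RNAs and RNA-binding proteins are held. Cpsf6 and Khdc4 encode nuclear proteins of RNA processing, and Ogt mRNA is known for a detained intron, an intron kept in a finished, polyadenylated transcript that then remains in the nucleus. Many messenger RNAs of splicing proteins, the SR proteins and the Clk kinases among them, carry such introns or exons that mark the transcript for decay. In a whole tissue extract nuclear and cytoplasmic RNA are counted together, and fewer cells of a type and less RNA per cell cannot be told apart.

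The promoters of 7 of the 10 genes were matched in RefSeq (GRCm38.p6), as windows of 250 bases before to 50 bases after a start site. Neat1, Pnisr and Ttc14 were not matched. Sequences are shown for Malat1, Cpsf6 and Wsb1, the genes whose window held more than 1 copy of TGACG, the core of the site bound by CREB and ATF proteins, searched on both strands. Capitals mark each copy, written as CGTCA where it lies on the other strand, and the copies in Wsb1 overlap as the full site TGACGTCA. The Malat1 window lies on the minus strand at chr19:5802623-5802922, that of Cpsf6 on the minus strand at chr10:117376924-117377223, and that of Wsb1 on the minus strand at chr11:79254646-79254945.
Malat1 promoter: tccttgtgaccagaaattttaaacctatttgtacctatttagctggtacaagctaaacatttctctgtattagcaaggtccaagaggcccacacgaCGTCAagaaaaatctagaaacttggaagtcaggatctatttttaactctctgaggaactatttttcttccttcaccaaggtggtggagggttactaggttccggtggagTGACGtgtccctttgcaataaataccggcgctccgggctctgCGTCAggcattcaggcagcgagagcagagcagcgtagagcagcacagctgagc
Cpsf6 promoter: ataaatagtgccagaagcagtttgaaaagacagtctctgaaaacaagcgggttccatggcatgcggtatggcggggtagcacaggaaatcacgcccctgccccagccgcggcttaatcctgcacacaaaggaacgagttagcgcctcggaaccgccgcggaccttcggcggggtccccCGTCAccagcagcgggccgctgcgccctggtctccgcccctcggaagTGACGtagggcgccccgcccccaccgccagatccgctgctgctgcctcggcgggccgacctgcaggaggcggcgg
Wsb1 promoter: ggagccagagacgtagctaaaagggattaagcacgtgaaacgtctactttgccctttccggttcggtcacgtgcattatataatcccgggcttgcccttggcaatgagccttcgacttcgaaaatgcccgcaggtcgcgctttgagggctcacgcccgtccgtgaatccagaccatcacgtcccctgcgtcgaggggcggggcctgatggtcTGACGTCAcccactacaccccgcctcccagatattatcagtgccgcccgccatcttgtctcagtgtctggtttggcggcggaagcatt

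The promoters of 5 of the 7 matched genes, Malat1, Cpsf6, Wsb1, Khdc4 and Crebzf, held TGACG, against 35% of the 8980 genes tested in kidney that had a promoter entry and 20.81% of all 32851 promoter windows. The full site TGACGTCA was found in 1 of the 7, against 3.60% of those tested genes, and the GC box GGGCGG in 5 of the 7, against 68.5%. The CCAAT box (CCAAT) was found in 3 of the 7 (42.3% of tested genes), the E box (CACGTG) and the ETS site (CCGGAAGT) in 1 each (11.9% and 9.03%), and the TATA box (TATAAA) in 0 (9.04%). These matches are letters in a window and say nothing of whether a factor binds there.

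Malat1 is known to end in a triple helix in place of a poly(A) tail, and CEL-seq primes on runs of A. Its annotated transcript of 6983 bases held a run of 12 A that ends 298 bases before the annotated end, shown in capitals with its neighbours.
Malat1, run of A: ctagctttAAAAAAAAAAAAgcaaaaga
The longest run of A in Neat1, whose annotated transcript has 20771 bases, had 7 A and lay 11226 bases before the end. Of the 8 messenger RNAs, Ttc14 alone held the AU-rich nonamer TTATTTATT in its 3′ untranslated region, 1 of 8 against 8.43% of 11044 tested coding genes. The shorter AU-rich word ATTTA was found 1.48 to 5.37 times per kb of 3′ untranslated region in the 8 (median 3.11), against a median of 1.42 over tested coding genes. In the annotation (GENCODE M21, GRCm38) an isoform marked for nonsense-mediated decay was listed for 6 of the 8, against 29.2% of 11052 tested coding genes. An isoform with a retained intron was listed for 5 of the 8 (62.5%), against 60.3%. These shares make no allowance for the number of annotated transcripts, which had a median of 8.5 in the 8, against 5 over tested coding genes. The median GC content of the 10 transcripts was 43.7%, against 48.9% over all tested genes.

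Total counts in genes ran from 863605 to 5691067 in the 30 kidney libraries (median 2248550) and from 1084591 to 4361115 in the 12 liver libraries. The tissue labels matched their markers: Umod and Slc34a1, made by kidney tubules, were at 586 CPM or more in every kidney library and at 0.728 CPM or less in every liver library, and Alb and Apoa2, made by hepatocytes, were at 8123 CPM or more in every liver library and at 630 CPM or less in every kidney library. Library 4 of AZD8055 stood apart by fat transcripts, with Fabp4 at 17330 CPM and Ucp1 at 4140 CPM, against kidney medians of 81.3 and 3.74 CPM. Gene models that resemble satellite repeats took 0.0350% to 29.0% of the counts of a kidney library and 5% or more in 11 of the 30.

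The nuclear RNA Malat1 was high in 4 control libraries and low in the other 26 kidney libraries. Its level, as CPM (a gene's counts relative to the library's total) scaled by the trimmed mean of M values (TMM), was 918, 958, 447 and 683 with AS-703026, 336, 445, 159 and 288 with ascorbyl-palmitate, 554, 444, 208 and 296 with AZD8055, 749, 454, 548 and 479 with enzastaurin, 476, 290, 246 and 423 with GDC-0941 and 591, 317, 460 and 325 with KU0063794. In controls 1 to 6 Malat1 stood at 1450, 391, 1159, 1454, 2101 and 282 CPM. Controls 1, 3, 4 and 5 lay above all 24 compound libraries, while controls 2 and 6 lay among them, at ranks 20 and 27 of the 30. The AS-703026 libraries were the compound libraries nearest to those controls, with library 2 at 958 CPM. Because 2 controls lay low, the control mean of 1140 ± 695 CPM (SD, n = 6) describes neither set of controls.

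Neat1 showed the same 4 controls on top, by a margin that was narrow for control 1. It had 184, 178, 442 and 381 CPM with AS-703026, 147, 302, 254 and 241 with ascorbyl-palmitate, 143, 160, 129 and 384 with AZD8055, 146, 437, 505 and 307 with enzastaurin, 167, 316, 125 and 305 with GDC-0941 and 164, 169, 278 and 222 with KU0063794. In controls 1 to 6 it had 523, 204, 1399, 1256, 1336 and 292 CPM. Controls 3, 4 and 5 stood at 1256 CPM or more, and control 1 exceeded the highest compound library, enzastaurin 3, by a ratio of 1.04. Within AZD8055 the 384 CPM belonged to library 4, the one with fat transcripts, and the other 3 libraries had 129 to 160 CPM. The AS-703026 mean of Malat1 was the highest of the 6 compounds at 751 ± 237 CPM, and for Neat1 the highest was enzastaurin at 349 ± 158 CPM (SD, n = 4 each), with groups that overlap in both.

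The messenger RNA of Cpsf6, a subunit of the factor that helps choose where pre-mRNA is cleaved and polyadenylated, was among the steadiest of the 10 over the compound libraries. It had 55.9, 57.2, 52.9 and 69.4 CPM with AS-703026, 53.6, 54.9, 55.3 and 64.2 with ascorbyl-palmitate, 56.8, 48.8, 59.2 and 78.7 with AZD8055, 59.6, 65.6, 72.0 and 63.3 with enzastaurin, 60.0, 59.1, 46.6 and 65.7 with GDC-0941 and 58.9, 52.7, 58.2 and 53.0 with KU0063794. In controls 1 to 6 it had 113, 58.3, 118, 141, 152 and 83.0 CPM. Control 6 exceeded every compound library and control 2 lay at their middle, so the low controls were not alike for this gene. The highest compound library held 1.69 times the lowest, against 6.02 times for Malat1 and 4.05 times for Neat1.

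Khdc4, a splicing regulator with KH domains, ranged from 28.5 to 52.4 CPM over the 24 compound libraries (median 42.1) and had 81.3, 52.4, 114, 118, 117 and 47.7 CPM in controls 1 to 6. Pnisr, a serine and arginine rich nuclear protein, ranged from 36.6 to 133 CPM with the compounds (median 85.1), its highest value being AS-703026 library 2, and had 156, 74.2, 232, 276, 246 and 68.2 CPM in controls 1 to 6. Controls 2 and 6 stood above 21 of the 24 compound libraries for Khdc4 and below 17 of the 24 for Pnisr. The low controls thus sat near the top of the compound range for one of these RNAs and in its lower part for the other.

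Crebzf, a leucine zipper protein that represses transcription with nuclear receptors and the unfolded protein response, gave the widest gap of the 10 RNAs between the 4 high controls and the rest. It had 24.3, 23.1, 32.0 and 23.4 CPM with AS-703026, 15.5, 28.7, 27.4 and 35.7 with ascorbyl-palmitate, 23.5, 24.4, 20.2 and 30.9 with AZD8055, 13.6, 31.0, 38.1 and 28.9 with enzastaurin, 23.6, 27.9, 20.4 and 28.8 with GDC-0941 and 28.3, 32.8, 36.5 and 29.1 with KU0063794. In controls 1 to 6 Crebzf had 63.7, 30.1, 85.5, 86.9, 108 and 30.6 CPM. The lowest of controls 1, 3, 4 and 5 held 1.67 times the level of the highest other library. Controls 2 and 6 ranked 12 and 13 of the 30.

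Zfp697, a zinc finger protein, ranged from 27.6 to 79.3 CPM over the compound libraries (median 48.1) and had 87.9, 61.3, 138, 133, 132 and 75.6 CPM in controls 1 to 6. Its values are uncertain, because its annotated gene spans 371352 bases and overlaps Hsd3b2 and Hsd3b3, steroid dehydrogenase genes on the opposite strand, and the strand setting of the counting is not given in the sources used here. Hsd3b2 ranged from 57.1 to 366 CPM over the compound libraries and had 227, 284, 338, 334, 335 and 321 CPM in controls 1 to 6. Hsd3b3 ranged from 20.6 to 99.3 CPM over the compound libraries and had 65.9, 70.1, 63.5, 76.6, 71.2 and 56.2 CPM in controls 1 to 6. The lowest control was control 1 for Hsd3b2 and control 6 for Hsd3b3, and the part of either gene in the values of Zfp697 was not tested. Ttc14 overlaps Ccdc39, which had 0 to 3 counts in a kidney library, and the models inside Malat1 and Neat1 had 0 counts.

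Ogt, the enzyme that adds the sugar GlcNAc to serines and threonines of nuclear and cytoplasmic proteins, had 63.1, 50.6, 46.9 and 53.7 CPM with AS-703026, 40.6, 40.7, 45.4 and 49.5 with ascorbyl-palmitate, 36.3, 37.6, 32.4 and 56.1 with AZD8055, 35.8, 50.5, 58.1 and 56.2 with enzastaurin, 57.3, 38.9, 36.4 and 52.6 with GDC-0941 and 57.7, 36.5, 46.5 and 34.5 with KU0063794. In controls 1 to 6 it had 104, 48.9, 131, 146, 174 and 36.8 CPM. The 4 high controls again did not overlap the rest, and control 6 ranked 24 of the 30. Wsb1, the substrate receptor of a cullin ubiquitin ligase, ranged from 18.4 to 50.3 CPM with the compounds (median 36.7) and had 68.1, 38.3, 148, 130, 171 and 50.0 CPM in controls 1 to 6. Ttc14, a protein with tetratricopeptide repeats whose role is little known, ranged from 9.75 to 28.6 CPM with the compounds (median 21.6) and had 42.8, 23.0, 53.7, 61.2, 69.5 and 30.2 CPM in controls 1 to 6. The counts behind these levels were 42 to 300 for Ogt, 30 to 295 for Wsb1 and 14 to 126 for Ttc14 in a library, so that Ttc14 is the least precisely counted of the 3.

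**Figure D1:**
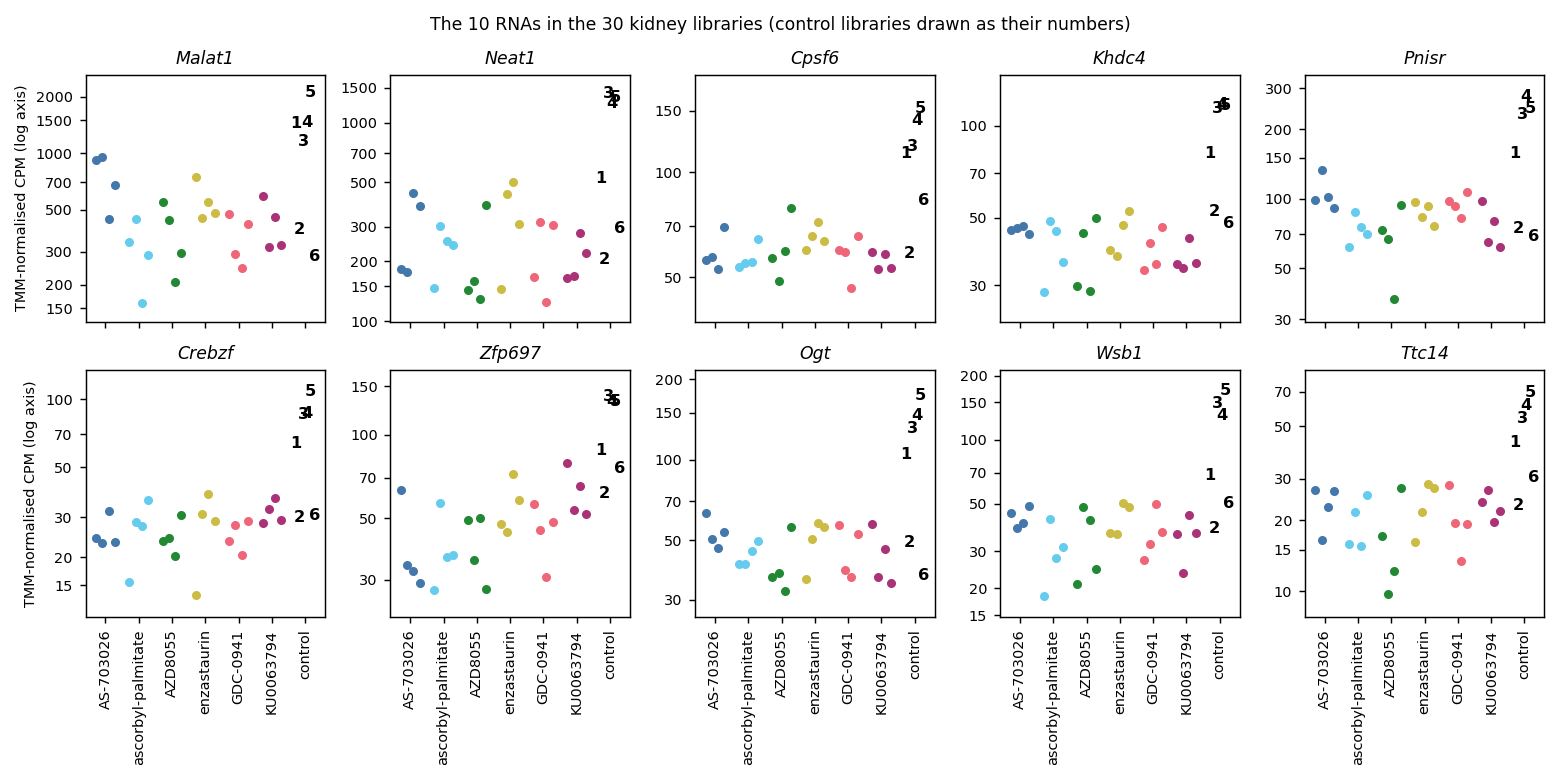
TMM-normalised CPM (log axis) of the 10 RNAs in the 30 kidney libraries, by compound and control; dots are compound libraries, and each control library is drawn as its number. Controls 1, 3, 4 and 5 lie above the other 26 libraries in all 10 panels, by 1.04 times for Neat1 to 1.67 times for Crebzf, and controls 2 and 6 lie within or just above the compound libraries.

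For all 10 RNAs the lowest of controls 1, 3, 4 and 5 exceeded the highest of the other 26 kidney libraries. The same held for 154 of the 11719 genes tested in kidney (1.31%), and the reverse, these 4 controls below all others, for 38 (0.324%). The RNAs were picked on these libraries and the 4 controls were told apart by the levels of the RNAs, so their full count is no result about them, and counts of other genes with this pattern are descriptions with no test. The ratio of that lowest to that highest value was 1.67 for Crebzf, 1.65 for Ogt, 1.55 for Khdc4, 1.42 for Ttc14, 1.36 for Cpsf6, 1.35 for Wsb1, 1.21 for Malat1, 1.17 for Pnisr, 1.11 for Zfp697 and 1.04 for Neat1. By this ratio Crebzf and Ogt ranked 3 and 4 of the 154 genes, and Neat1 ranked 118.

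Each RNA was standardised over the 30 kidney libraries on the log2(CPM + 1) scale and averaged over the 10. This mean level was 2.5 standard deviations above the overall mean in control 5, 2.26 in control 4, 2.11 in control 3 and 1.37 in control 1. It was 0.00394 in control 6 and -0.168 in control 2. The compound libraries ran from -1.06 in ascorbyl-palmitate 1 to 0.348 in enzastaurin 3. Controls 2 and 6 thus lay inside the range of the compound libraries. No label separates controls 2 and 6 from the other controls, so no mean is given for either set and no test was made between them.

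Against all 6 controls the fitted log2 changes of the 10 RNAs were below 0 with every compound, which is what they were picked for. They ran from -1.49 to -0.60 with AS-703026 (median -0.98), from -1.89 to -0.95 with ascorbyl-palmitate (-1.29), from -2.03 to -0.86 with AZD8055 (-1.41), from -1.25 to -0.76 with enzastaurin (-1.02), from -1.86 to -0.88 with GDC-0941 (-1.22) and from -2.0 to -0.76 with KU0063794 (-1.23). The median over all tested genes lay between -0.02 and 0.03 in the same comparisons. Malat1 spread most between compounds, from -1.89 with ascorbyl-palmitate to -0.60 with AS-703026, and Cpsf6 least, from -0.99 to -0.76. The comparisons share the 6 control libraries, so a level that is high in a control lowers all 6 values at once.

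Few of these differences separated a compound from all its controls. All 4 libraries of the compound lay below all 6 controls for 1 of the 10 RNAs with AS-703026 (1.86% of all tested genes), 1 with ascorbyl-palmitate (1.42%), 1 with AZD8055 (1.13%), 0 with enzastaurin (0.853%), 3 with GDC-0941 (1.22%) and 1 with KU0063794 (0.939%). These counts were read from the contrast that picked the RNAs and are no test. For Malat1 15 of the 24 compound libraries exceeded both control 2 and control 6 and 3 lay below both, and for Pnisr 17 exceeded both and 5 lay below both. For Khdc4, Cpsf6 and Ttc14 0 of the 24 exceeded both, and 21, 12 and 15 lay below both.

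**Figure D2:**
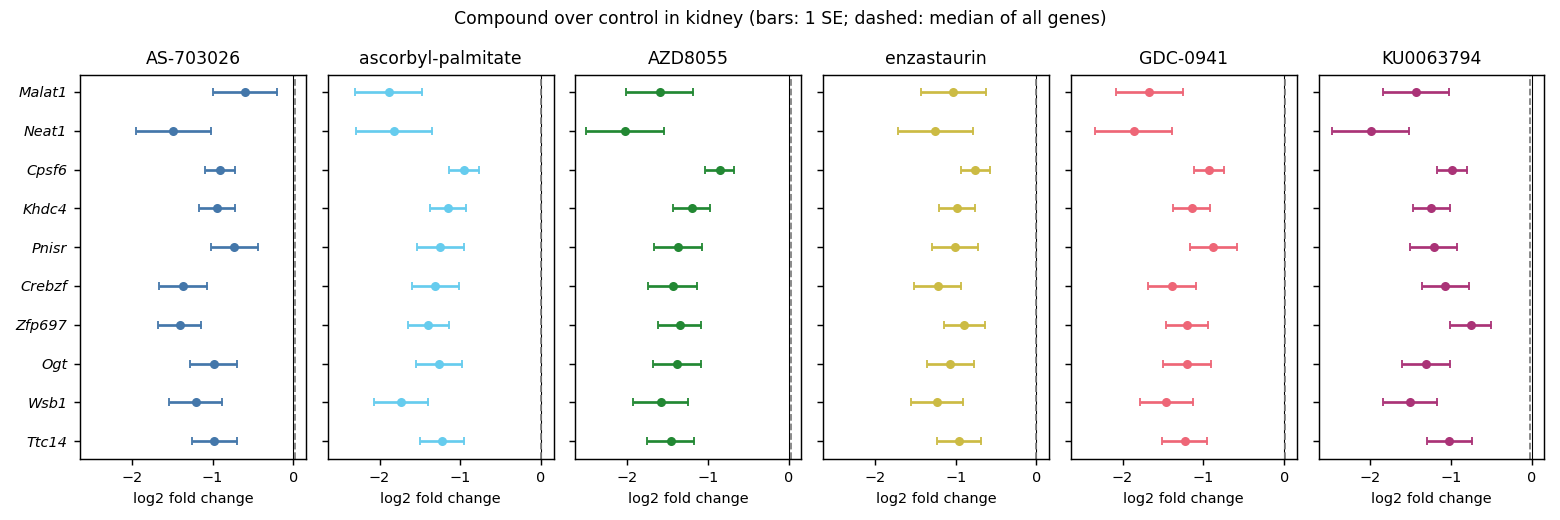
Fitted log2 fold change of each RNA, compound over control, in kidney for the 6 compounds; points are estimates, bars 1 standard error, and the dashed line is the median of all 11719 genes. All 60 estimates lie below 0, between -2.03 and -0.60, and all 6 panels use the same 6 control libraries.

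Among the 24 compound libraries alone, where no control enters, the 10 RNAs varied together less than over all 30. Spearman's rho between pairs of the 10 had a median of 0.530 over the 30 kidney libraries, with 45 of 45 pairs above 0. Over the 24 compound libraries the median was 0.319, with 43 of 45 above 0, the highest being Neat1 with Khdc4 at 0.704 and the lowest Malat1 with Crebzf at -0.143. Over the 12 liver libraries, for the 9 RNAs tested there, it was 0.0979, with 21 of 36 above 0. These values describe the libraries, which also share depth and scaling, and carry no test.

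Of 7983 genes with a kidney mean of at least 10 CPM, Ddx17, an RNA helicase of splicing and microRNA processing, was most like the mean level of the 10 RNAs over the 30 libraries (rho 0.804). Next came Chka, which makes phosphocholine, at 0.772, Tnrc6a, a partner of Argonaute in RNA silencing, at 0.766, Ankrd10 at 0.763, and Kmt2d, a histone methyltransferase, at 0.730. Ddx17 ranged from 50.5 to 116 CPM over the compound libraries and had 120, 71.3, 204, 236, 263 and 118 CPM in controls 1 to 6. The list went on with Tead1, Fbrsl1, Wdfy3, AW549877 and Ipo13, all between 0.719 and 0.730. Over the 24 compound libraries rho was 0.711 for Ddx17, 0.718 for Tnrc6a and 0.897 for Ipo13. The most unlike were Gm10073 (-0.790), Rps15a-ps6 (-0.755), Ndufb11, a subunit of respiratory complex I (-0.741), Hpd, an enzyme of tyrosine breakdown (-0.738), and Eci1, an enzyme of fatty acid oxidation (-0.738). Gm10073 and Rps15a-ps6 resemble other genes in sequence, and reads may have been split between copies. The median rho of all genes compared was 0.00111.

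Messenger RNAs known to carry retained or detained introns were high in the same controls. Of the 45 listed ones that were tested, 19 had controls 1, 3, 4 and 5 above the other 26 libraries (42.2%, against 1.31% of all tested genes), among them the SR protein genes Srsf5, Srsf6, Srsf7 and Srsf11, the kinase gene Clk1 and the helicase genes Ddx5 and Ddx17. The list's median, on the log2(CPM + 1) scale relative to each gene's mean over the 24 compound libraries, was 0.61, -0.11, 0.80, 0.93, 0.95 and 0.04 in controls 1 to 6, and the compound libraries ran from -0.17 to 0.27. For the 10 RNAs the same measure was 1.02, 0.10, 1.5, 1.67, 1.82 and 0.29 in controls 1 to 6, and -0.47 to 0.43 in the compound libraries. Controls 2 and 6 lay within the compound range in both.

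Against all 6 controls 15 of the 45 were called lower with AZD8055 (1.69% of all tested genes were) and 3 with AS-703026 (0.469%). The calls are from edgeR's quasi-likelihood test with Benjamini-Hochberg adjustment over all tested genes. Genes with the controls' pattern, here and in the lists that follow, were compared with controls that were not alike. With the other 4 compounds edgeR called 0 of the 45, where 0.0427% (ascorbyl-palmitate), 0% (enzastaurin), 0.119% (GDC-0941) and 0.0427% (KU0063794) of all genes were called lower. At an unadjusted p under 0.05 it was 34, 33, 33 and 34 of the 45, and DESeq2 called 13, 3, 12 and 10. Over all 11719 genes the share lower at an unadjusted p under 0.05 was 8.12% with AS-703026, 7.23% with ascorbyl-palmitate, 7.94% with AZD8055, 5.39% with enzastaurin, 7.53% with GDC-0941 and 6.07% with KU0063794. The share called lower by DESeq2 was 1.37%, 0.879%, 2.25%, 0.213%, 1.08% and 0.512% with the compounds in that order. These shares are the background of the lower counts at these thresholds given for the lists that follow. The list's median log2 change was -0.48 with AS-703026, -0.64 with ascorbyl-palmitate, -0.62 with AZD8055, -0.57 with enzastaurin, -0.59 with GDC-0941 and -0.64 with KU0063794, and 42 to 45 of the 45 were below 0 in each. Srsf6 averaged 76.5 ± 9.29 CPM with AZD8055 (n = 4) and 146 ± 52.7 CPM in control (SD, n = 6), a log2 change of -0.93 ± 0.22 (SE; edgeR adjusted p = 0.0133). Srsf7 averaged 47.9 ± 3.15 CPM with AZD8055 and 88.2 ± 31.1 CPM in control, and Srsf11 averaged 165 ± 16.9 CPM with AZD8055 and 319 ± 146 CPM in control (SD, n = 4 and 6). Their log2 changes were -0.87 and -0.95, with edgeR adjusted p of 0.0141 and 0.0143. Srsf6, Srsf7 and Srsf11 all had the controls' pattern, so these control means describe neither set of controls. The lowest of controls 1, 3, 4 and 5 had 135, 92.0 and 279 CPM of them. The highest of the other libraries, controls 2 and 6 included, had 103, 68.3 and 221 CPM.

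The counts changed when single libraries were left out. The AZD8055 count was 3 without AZD8055 library 4, control 4 or control 5, 5 without AZD8055 library 3 or control 3, 8 without control 1, 9 without AZD8055 library 1 or 2, 22 without control 2 and 21 without control 6. Without AZD8055 library 4 the edgeR adjusted p of Srsf6, Srsf7 and Srsf11 was 0.0710, 0.0837 and 0.0870. The AS-703026 count was 0 without AS-703026 library 4, control 3, 4 or 5, 1 without AS-703026 library 1, 2 or 3 or control 1, 7 without control 6 and 13 without control 2. With the share of satellite-like counts in the model it was 1. AS-703026 libraries 2, 3 and 4 are among the 11 kidney libraries of at least 5% satellite-like counts, so no count is given without those 11.

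Other long noncoding RNAs known to stay in the nucleus showed the controls' pattern for 3 of 12, Firre, Mir22hg and Snhg11, and noncoding hosts of snoRNAs for 3 of 10, Snhg12, Snhg14 and Snhg20. Over all 399 long noncoding RNAs tested the share was 4.26%, and over 11052 coding genes 1.21%. Firre, an X-linked RNA that anchors chromatin, averaged 3.37 ± 2.21 CPM with AZD8055 (n = 4) and 13.9 ± 8.92 CPM in control (SD, n = 6). Snhg12 averaged 8.08 ± 3.78 CPM with AZD8055 and 23.0 ± 7.29 CPM in control (SD, n = 4 and 6), a log2 change of -1.46 (edgeR adjusted p = 0.00405). Firre, Snhg11, Snhg12 and Snhg14 were called lower with AZD8055 against all 6 controls. All 4 genes had the controls' pattern, so AZD8055 was compared with controls that were not alike. For Firre the lowest of controls 1, 3, 4 and 5 had 14.3 CPM. The highest of the other libraries, controls 2 and 6 included, had 8.30 CPM. With the other 5 compounds edgeR called 0 of both lists, where 1 to 5 of the 12 and 3 to 5 of the 10 had an unadjusted p under 0.05 in the lower direction and DESeq2 called 0 or 1 of the 12 and 0 to 2 of the 10. Without AZD8055 library 4 all 4 lost their call, Snhg12 at an adjusted p of 0.0600, and the other 3 also without control 3, 4 or 5, with adjusted p up to 0.159.

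Of 31 tested messenger RNAs of paraspeckle proteins, which gather on Neat1, 1 had the controls' pattern, Tardbp, which binds RNA in the nucleus and controls splicing (3.23%). Sfpq, a core paraspeckle protein, averaged 65.7 ± 9.14 CPM with AS-703026, 56.2 ± 5.11 with AZD8055, 56.6 ± 18.7 with GDC-0941 (SD, n = 4 each) and 104 ± 20.7 CPM in control (SD, n = 6). Its edgeR adjusted p was 0.0465, 0.00372 and 0.0390 in these comparisons, and it ranged from 0.00268 to 0.0493 for AZD8055 when each library was left out in turn. The call with AS-703026 was lost without AS-703026 library 2, 3 or 4 or controls 1, 3, 4, 5 or 6, and that with GDC-0941 without GDC-0941 library 2, 3 or 4 or control 1, 3, 4 or 5, each left out alone, with adjusted p up to 0.224 and 0.245. Tardbp, whose controls were split in this way, was called lower with AS-703026 and AZD8055 against all 6 controls (log2 changes -1.04 and -0.80, edgeR adjusted p 0.0241 and 0.0182). Fam98a was called lower with AS-703026 (log2 change -0.81, edgeR adjusted p 0.0394). Cirbp, a cold-inducible RNA-binding protein, was called higher with AS-703026 (log2 change 0.89, edgeR adjusted p 0.0394), where 0.452% of all genes were called higher. Each of these calls was lost without control 4 or control 5, those with AS-703026 also without control 3 or AS-703026 library 4, Cirbp and Fam98a without AS-703026 library 3, Fam98a without AS-703026 library 2, and Tardbp with AZD8055 without AZD8055 library 3 or 4, with adjusted p up to 0.206. Without the 11 libraries rich in satellite-like counts, library 1 was the only AS-703026 library left. The log2 changes with it were -0.61 for Sfpq, -1.02 for Tardbp, -0.64 for Fam98a and 0.98 for Cirbp. GDC-0941 libraries 2 and 4 were left in that setting, and the call of Sfpq with GDC-0941 was lost (edgeR adjusted p 0.0643). With that share in the model the calls of Sfpq, Fam98a and Cirbp with AS-703026 and of Sfpq with GDC-0941 were lost. With ascorbyl-palmitate, enzastaurin and KU0063794 edgeR called 0 of the 31, where 6 or 7 had an unadjusted p under 0.05 in the lower direction and DESeq2 called 2 lower.

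Of 20 tested partners of Cpsf6 in 3′ end formation, 2 were called lower with AZD8055: Cpsf7, another large subunit of the same factor, and Pabpn1, the nuclear poly(A)-binding protein. Cpsf7 averaged 27.0 ± 3.56 CPM with AZD8055 (n = 4) and 47.8 ± 16.0 CPM in control (SD, n = 6), a log2 change of -0.83 (edgeR adjusted p = 0.0164), which was lost without AZD8055 library 4, control 4 or control 5 (adjusted p up to 0.0837). Of 20 factors of nuclear RNA decay, Pabpn1 and Zcchc7 had the controls' pattern, with controls 2 and 6 below the others. Both were called lower with AZD8055 against all 6 controls, with log2 changes of -2.02 and -1.06. Both calls were lost without AZD8055 library 3 or 4, control 4 or control 5, and that of Pabpn1 also without AZD8055 library 1, control 1 or control 3, with adjusted p up to 0.210 and 0.0870. With each of the other 5 compounds edgeR called 0 of either list, where 2 to 5 and 2 to 4 had an unadjusted p under 0.05 in the lower direction and DESeq2 called 0 or 1.

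Mgea5, the enzyme that removes the sugar Ogt adds, had the controls' pattern, 1 of 8 of the O-GlcNAc list, and edgeR called 0 of that list with any compound, where 1 to 3 had an unadjusted p under 0.05 in the lower direction and DESeq2 called 0 or 1. Nagk, a kinase that salvages GlcNAc, had log2 changes of 0.14 to 0.62 with the 6 compounds and was not called. The cullin ligase partners of Wsb1 had it for 0 of 14 and the partners of Crebzf for 0 of 11. In those lists edgeR called Spsb1 and Srebf1 higher with AZD8055 (3.77% of all genes were), with log2 changes of 2.09 and 1.84, and without the fat-rich library 4 these were 0.07 and 0.30 with adjusted p of 0.982 and 0.728. The call of Spsb1 was also lost without control 1, 3, 4 or 5.

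Of 43 tested short-lived messenger RNAs of the early response, 0 had controls 1, 3, 4 and 5 above the other libraries. Their median relative to the compound libraries was 0.11, 0.13, -0.12, 0.10, 0.13 and -0.06 in controls 1 to 6, inside the compound range of -0.23 to 0.58. None of the 43 was called lower by edgeR with any compound, with 1 to 4 at an unadjusted p under 0.05 in that direction, and DESeq2 called 0 or 1. Nfkbia, the inhibitor of NF-kappaB, averaged 61.4 ± 17.0 CPM with AS-703026 (n = 4) and 35.5 ± 2.09 CPM in control (SD, n = 6). Its log2 change was 0.79 (edgeR adjusted p = 0.0203), and the adjusted p was up to 0.129 without AS-703026 library 4, control 4 or control 5. Without the libraries rich in satellite-like counts, where library 1 was the only AS-703026 library left, the log2 change was 0.61. Cebpb, Pim1 and Cebpd were called higher with AZD8055, and without library 4 the log2 changes of Cebpb and Pim1 were 0.06 and -0.11. The call of Pim1 was also lost without control 3, 4 or 5, and that of Cebpd (1.48) without AZD8055 library 3 or 4 or control 1, 4, 5 or 6, with an adjusted p up to 0.202.

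Ribosomal protein messenger RNAs are long-lived and cytoplasmic, and of the 6 controls only control 5 had a list median outside the range of the compound libraries. The median was -0.17 in control 1, 0.04 in control 2, -0.30 in control 3, -0.32 in control 4, -0.42 in control 5 and 0.03 in control 6, and the compound libraries ran from -0.38 to 0.41. Of 61 tested, 2 had the reverse pattern, Rps3 and Rps9 (3.28%, against 0.324% of all genes). Against all 6 controls 1 of the 61 was called higher, Rps4x with AZD8055, at 52.8 ± 3.35 CPM with AZD8055 (n = 4) and 30.8 ± 7.82 CPM in control (SD, n = 6), and its edgeR adjusted p of 0.0255 was lost without AZD8055 library 3 or 4 or control 1, 3, 4 or 5 (up to 0.104). With the other 5 compounds edgeR called 0, where 1 to 22 had an unadjusted p under 0.05 in the higher direction and DESeq2 called 0 to 5. Of all genes edgeR called 0.0171% higher with GDC-0941, and 7.01% were higher at an unadjusted p under 0.05 with AS-703026, 5.29% with ascorbyl-palmitate, 2.41% with enzastaurin, 5.55% with GDC-0941 and 3.69% with KU0063794. DESeq2 called 0.939%, 0.452%, 0.0171%, 0.503% and 0.0341% of all genes higher with these 5 compounds in that order. Of 9 mitochondrially encoded messenger RNAs 0 had either pattern, and mt-Nd4 and mt-Cytb, the most abundant, had log2 changes of -0.37 to -0.04 and -0.23 to 0.16 and were not called, although the mitochondrial ribosomal RNA mt-Rnr1 was among the 154 genes.

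**Figure D3:**
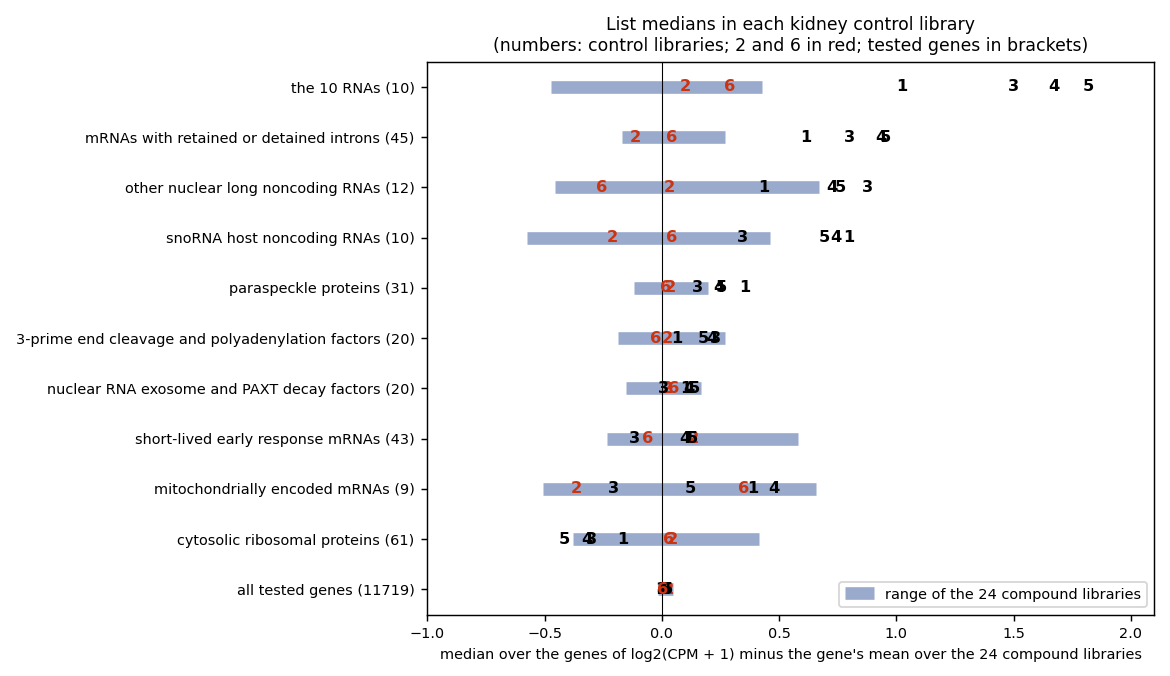
Median over the tested genes of a list (number in brackets) of log2(CPM + 1) minus the gene's mean over the 24 compound libraries; bars span the 24 compound libraries, and numbers are the control libraries, 2 and 6 in red. For the 10 RNAs and the retained or detained intron list controls 1, 3, 4 and 5 lie to the right of the bar, at 1.02 to 1.82 and 0.61 to 0.95, while for the early response list all 6 controls lie inside it.

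Total counts were lower in controls 1, 3, 4 and 5 than in controls 2 and 6, and so was the ribosomal protein share. Totals were 863605 to 1644042 counts in controls 1, 3, 4 and 5, and 2559118 and 1787638 counts in controls 6 and 2. The 6 compound libraries with totals of 894034 to 1553748 had a mean standardised level of the 10 RNAs from -0.681 to 0.0623. The share of counts in long noncoding RNAs was 0.759% to 1.05% in controls 1, 3, 4 and 5 and 0.428% and 0.769% in controls 6 and 2, and 7 compound libraries with 0.808% to 1.27% had levels from -0.846 to -0.0369. The share in ribosomal protein messenger RNAs was 0.624% to 0.770% in controls 1, 3, 4 and 5 and 0.893% and 0.775% in controls 6 and 2. The 4 compound libraries with 0.564% to 0.716% had levels from -0.50 to -0.163. The 11 kidney libraries with at least 5% satellite-like counts, control 3 and control 2 among them, had levels from -0.846 to 2.11. The part of depth and of each of these shares in the pattern was not tested.

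Macrophage markers were lower in controls 1, 3, 4 and 5 than in controls 2 and 6, while proximal tubule markers overlapped. The summed level of 8 proximal tubule markers was 41880 to 54720 CPM in controls 1, 3, 4 and 5, 47990 to 48010 CPM in controls 2 and 6 and 13100 to 67290 CPM in the compound libraries. For 5 macrophage markers it was 36.6 to 70.7 CPM in controls 1, 3, 4 and 5, 93.1 and 190 CPM in controls 6 and 2 and 77.2 to 236 CPM in the compound libraries. By this sum these 4 controls were below every other library. By the median of the 4 tested macrophage markers, on the scale used for the lists, they were not. Controls 1, 4 and 5, at -0.70, -0.65 and -0.51, lay inside the compound range of -0.99 to 1.36. Control 3 lay below it at -1.29. For 3 erythroid markers it was 793 to 2572 CPM in controls 1, 3, 4 and 5, 2218 and 7004 CPM in controls 6 and 2 and 1788 to 12390 CPM in the compound libraries. No macrophage marker was at 0 throughout a group, Alas2 of the erythroid list was at 0 in controls 2 and 6, and the part of blood or macrophages in the level of the 10 RNAs was not tested.

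**Figure D4:**
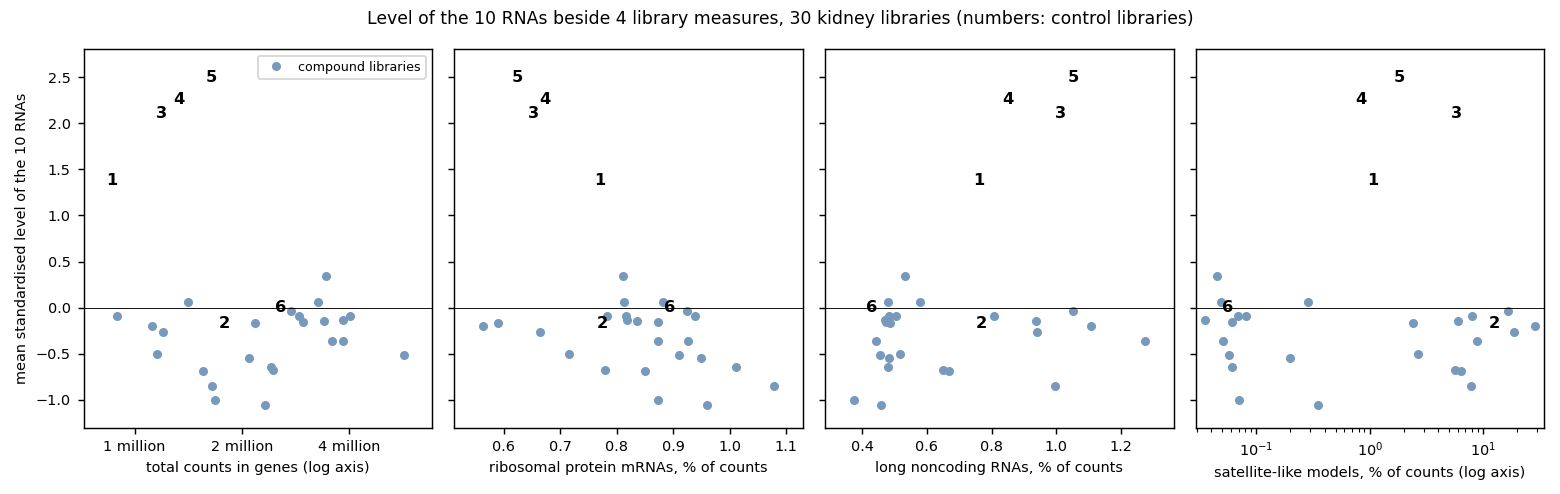
Mean standardised level of the 10 RNAs in the 30 kidney libraries against total counts and the shares of counts in ribosomal protein mRNAs, long noncoding RNAs and satellite-like models; dots are compound libraries and numbers control libraries. The 24 compound libraries lie at or below 0.348 and controls 1, 3, 4 and 5 at 1.37 to 2.5.

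In liver, whose libraries did not enter the choice of the RNAs, 1 of the 9 tested RNAs differed between compounds. Wsb1 had 39.4, 29.0, 52.1 and 29.9 CPM with AS-703026, 15.7, 28.4, 17.4 and 18.7 CPM with enzastaurin and 17.2, 11.7, 25.3 and 10.9 CPM with GDC-0941. With scaling over the livers alone every AS-703026 liver lay above every liver of the other compounds, by 29.0 against 28.4 CPM at the closest. With scaling over both tissues the groups overlapped, with the lowest AS-703026 liver at 34.0 CPM and the highest enzastaurin liver at 37.1 CPM. AS-703026 exceeded GDC-0941 by a log2 change of 1.24 ± 0.27 (SE; edgeR adjusted p = 0.0219; 3.22% of 9490 genes were called) and enzastaurin by 0.90 ± 0.27 (adjusted p = 0.0954; 2.96%). DESeq2 called both (2.7% and 2.49% of all genes were higher). The edgeR call was lost without AS-703026 library 1 or 3 or GDC-0941 library 1, 2 or 4, with adjusted p up to 0.104 and log2 changes from 1.02 to 1.54. Adjusted for the share of satellite-like counts in each library, the change was 0.61 and was not called (adjusted p = 0.589). That share was 0.857% to 1.77% in the AS-703026 livers and 0.124% to 0.645% in the others, so share and compound cannot be told apart.

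Malat1 in liver had 81.8, 113, 152 and 83.7 CPM with AS-703026, 163, 62.5, 234 and 57.8 CPM with enzastaurin and 175, 305, 132 and 131 CPM with GDC-0941. Its log2 difference between AS-703026 and GDC-0941 was -0.79, with an interval of 2 standard errors to either side of -1.60 to 0.03 and an edgeR adjusted p of 0.374. Neat1 in liver had 23.6, 68.9, 40.7 and 41.3 CPM with AS-703026, 121, 73.6, 67.0 and 51.8 CPM with enzastaurin and 79.1, 67.6, 38.4 and 40.8 CPM with GDC-0941. Its log2 difference between AS-703026 and enzastaurin was -0.88, with an interval of -1.51 to -0.24 before adjustment and an adjusted p of 0.178. The order of the compounds for Malat1 in liver, AS-703026 lowest, was not the order in kidney, where AS-703026 was highest of the 6; libraries overlap in both tissues and that difference was not tested.

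The other 6 RNAs in liver, Cpsf6, Khdc4, Pnisr, Crebzf, Ogt and Ttc14, had log2 differences between -0.44 and 0.25 in the 3 comparisons, and none was called. Between enzastaurin and GDC-0941 edgeR called 0 of the 9 (0% of all genes), with 2 lower at an unadjusted p under 0.05 (4.1% of all genes), and DESeq2 called 0 (0.2%). For Pnisr the 4 enzastaurin livers, at 28.9 to 35.7 CPM, lay below the 4 GDC-0941 livers, at 37.1 to 45.8 CPM, with a log2 difference of -0.37 and an adjusted p of 0.467. Over the 12 livers the highest library exceeded the lowest by 1.54 times for Ogt to 5.28 times for Malat1, with 5.11 for Neat1 and 4.78 for Wsb1. Over the 24 compound kidneys, which span 6 compounds and not 3, it was 1.69 times for Cpsf6 to 6.02 times for Malat1, with 4.05 for Neat1 and 2.73 for Wsb1. Zfp697 had 0.602 to 1.81 CPM in liver.

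Among the lists, edgeR called Srsf5 lower with AS-703026 than with GDC-0941 in liver, 1 of 45 of the retained or detained intron list (1.18% of all genes were called lower), and the paraspeckle gene Rbmx and the noncoding RNA Pvt1 lower with AS-703026 than with enzastaurin (1.03%). Each of these 3 calls was lost when single libraries were left out, with adjusted p up to 0.138, among them AS-703026 library 1 or 3. Socs3, a feedback inhibitor of cytokine signalling, averaged 31.6 ± 10.5 CPM with AS-703026 against 8.50 ± 5.37 CPM with enzastaurin and 3.60 ± 2.32 CPM with GDC-0941 (SD, n = 4 each), with edgeR adjusted p of 0.0122 and 0.00129, and up to 0.0472 and 0.00770 with 1 library left out. With the satellite-like share in the model the call of Socs3 over enzastaurin (adjusted p = 0.242) and those of Srsf5 (0.321), Rbmx (0.544) and Pvt1 (0.542) were lost, and that of Socs3 over GDC-0941 was kept. Every AS-703026 liver had a higher share than every other liver, so share and compound cannot be told apart in any of these liver fits. Of 41 early response genes 5 were higher with AS-703026 than with enzastaurin (1.93% of all genes) and 3 higher than with GDC-0941 (2.04%), and Wsb1, a SOCS-box protein like Socs3, was called in the second comparison. With the satellite-like share in the model all 5 and 2 of the 3, Sgk1 and Cebpd, were no longer called. Creb3l3, a liver transcription factor in the list of Crebzf partners, was lower with AS-703026 than with GDC-0941 (log2 change -0.52, edgeR adjusted p = 0.0254), and with that share in the model it was not called (0.412). Its call was also lost without AS-703026 library 1 or 3 or GDC-0941 library 3 or 4 (adjusted p up to 0.0978), and that of Sgk1 without AS-703026 library 1 or 3 or GDC-0941 library 1 or 3 (up to 0.0882). Over enzastaurin, Per1, Tob1, Nfkbia and Cebpd lost their calls without AS-703026 library 3 or enzastaurin library 2 or 4, Tob1, Nfkbia and Cebpd also without AS-703026 library 1, Tob1 without enzastaurin library 1, and Nfkbia without AS-703026 library 4 or enzastaurin library 3, with adjusted p up to 0.136.

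Between the tissues, over the 12 kidney and 12 liver libraries of the 3 compounds given in both, 4 of the 9 RNAs that passed the filter in both tissues were higher in kidney (39.2% of 12262 genes) and 1 was lower (38.2%) by edgeR. These kidney libraries are among those on which the RNAs were picked as lower than control. That choice favours low kidney levels, and the adjusted p-values of this contrast make no allowance for it. Zfp697 averaged 36.6 ± 10.7 CPM in kidney and 1.49 ± 0.470 CPM in liver (SD, n = 12 each), with 2 to 7 counts in a liver library. It carries no test here, because it passed the filter through kidney, where it is high. Whether its level includes reads of the overlapping steroid dehydrogenase genes is not known. Neat1 averaged 227 ± 102 CPM in kidney and 74.3 ± 31.2 CPM in liver, and Malat1 434 ± 177 CPM in kidney and 177 ± 91.4 CPM in liver (SD, n = 12 each). Their log2 differences were 1.66 and 1.27, with adjusted p of 3.05e-07 and 7.13e-06. The Malat1 difference was uneven between compounds. It had 589 ± 185 CPM in kidney and 134 ± 43.4 CPM in liver with AS-703026, 431 ± 99.9 CPM in kidney and 161 ± 104 CPM in liver with enzastaurin, and 282 ± 85.2 CPM in kidney and 234 ± 104 CPM in liver with GDC-0941 (SD, n = 4 each). With GDC-0941 the tissues overlapped, the highest liver at 386 CPM lying above the highest kidney at 375 CPM, and the difference between compounds was not tested.

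Pnisr was higher in kidney by 0.69 and Cpsf6 by 0.33, with adjusted p of 8.20e-09 and 0.00201. Ogt was lower in kidney by a log2 difference of -0.38 (edgeR adjusted p = 0.000480), at 39.1 ± 6.95 CPM in kidney and 51.3 ± 6.15 CPM in liver (SD, n = 12 each). A lower kidney level is the direction that the choice of the RNAs favours, so this p-value is no independent test. For Khdc4, Crebzf, Ttc14 and Wsb1 the differences were -0.11, -0.03, 0.13 and 0.12, with intervals of 2 standard errors to either side inside -0.30 to 0.41, and were not called. The median over all genes in this contrast was 0.05 with TMM scaling and 0.16 with either RLE or DESeq2 scaling, and the differences of Khdc4 and Crebzf were above 0 with those scalings, at 0.0042 and 0.0836 with RLE scaling. With no filter on low counts the Ogt difference was -0.26 and was not called (adjusted p = 0.0611). These 5 calls held when each of the 24 libraries was left out in turn.

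**Figure D5:**
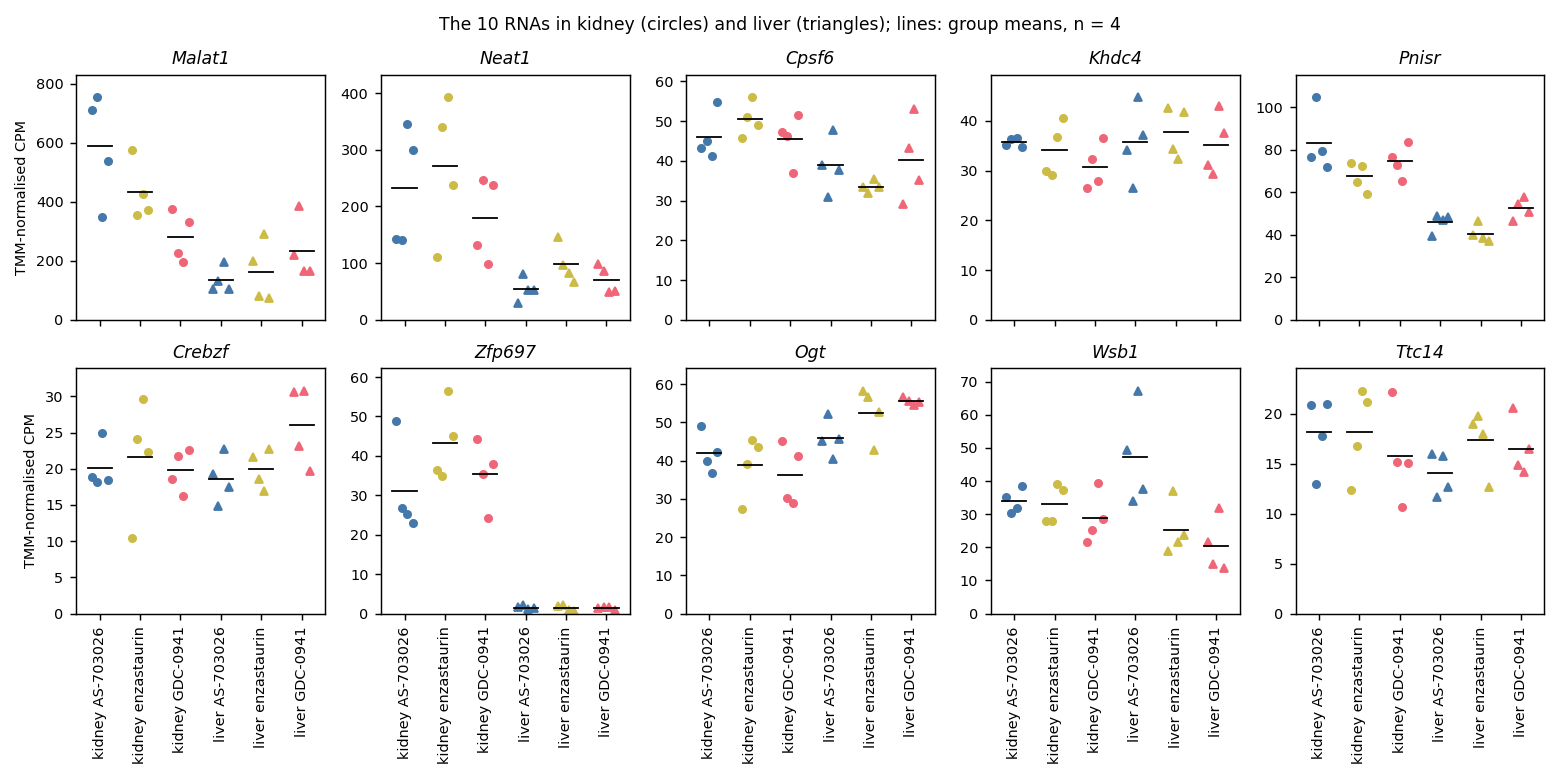
TMM-normalised CPM of the 10 RNAs in kidney (circles) and liver (triangles) of mice given AS-703026, enzastaurin or GDC-0941; points are libraries and lines group means (n = 4). Pnisr and Zfp697 lie higher in every kidney than in every liver, Malat1 and Neat1 have higher means in kidney with libraries that overlap, and Ogt has a lower mean in kidney. Among the livers Wsb1 has its highest mean with AS-703026, and on this scaling over both tissues its libraries overlap those of enzastaurin.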

How the data were processed

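CEL-seq libraries of 30 kidneys and 12 livers were deposited by the authors as 1 table of raw read counts per gene, with 43629 genes, of which 42548 matched a symbol in GENCODE M21 (GRCm38). Per the submitters' processing notes, bcl2fastq 1.8.4, Trimmomatic 0.32, STAR 2.5.2b and featureCounts 1.5 were used with mm10. No source used here gives the annotation release, the strand setting or the handling of molecular identifiers. Every column was matched to a label, with 0 left over.

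Genes passing edgeR's expression filter were fitted with edgeR 4.0.16 (R 4.3.3) by the quasi-likelihood test with TMM scaling, in 3 fits: 30 kidney libraries, 12 liver libraries, and both tissues of the 3 compounds fed in common (24 libraries). CPM values were computed per fit. P-values were adjusted by Benjamini-Hochberg over all tested genes, and a call means an adjusted p under 0.05. The fits were also run on simulated counts with known changes, the same spread for every gene and no split controls. Those simulations do not bear on calls made where the controls were split. Alternatives were RLE scaling, DESeq2 1.42.0, no filter, a replicate block, the satellite-like share as covariate, libraries left out, and 3 added after seeing the data (raw CPM, median of ratios, AZD8055 library 4 left out). P-values set a difference against the spread between these libraries, estimated over all groups of a fit.

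The 10 RNAs and all gene lists were chosen with earlier results of these data known. Of each list up to 4 genes called in the most kidney comparisons were named, or with no call the 2 of highest mean level. The 10 genes most like and the 5 most unlike the mean level of the 10 RNAs were named by Spearman's rho. List genes with the controls' pattern or called in liver, and Hsd3b2, Hsd3b3 and Ccdc39, were named after their values were seen. Promoter sequences came from RefSeq (GRCm38.p6). Counts of whole reads limit precision at the levels given, and intervals cover the fitted spread only.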

Additional observations from a re-analysis of the deposited data

Results flagged for a closer look

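In 5 of 100 sets of 4 to 6 libraries, 1 library stood far from the others of its group by Dixon's criterion, which chance alone gives in about 1 set in 20. Neat1 was 383.6 CPM in AZD8055 library 4, the library with fat transcripts, against 128.9 to 159.5 CPM in the other 3. Zfp697 was 63.12 CPM in AS-703026 library 1, against 29.21 to 34.07 CPM in the other 3. Cpsf6 was 64.19 CPM in ascorbyl-palmitate library 4, against 53.59 to 55.27 CPM. Khdc4 was 42.83 CPM in KU0063794 library 3, against 34.18 to 35.35 CPM, and Crebzf was 31.97 CPM in AS-703026 library 3, against 23.08 to 24.33 CPM.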

How the results depend on the processing

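The log2 change of the 10 RNAs in kidney, compound over control, was below 0 in 1070 of 1070 fitted values over all settings, from -2.54 to -0.34. The RNAs were picked for this sign in these libraries, so the count is a description and no test. Controls 1, 3, 4 and 5 stayed on top for all 10 under raw CPM (202 genes), median of ratios (150) and without AZD8055 library 4 (171), against 154.

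Counts of called genes moved, and the cause was not tested. For AS-703026 in kidney (108) the count was 270 with DESeq2, 296 with no filter, 20 with the satellite-like share as covariate and 339 without AZD8055 library 4. Without the 11 kidneys rich in satellite-like counts library 1 was the only AS-703026 library left, so no count is given. AZD8055 libraries 3 and 4 and GDC-0941 libraries 2 and 4 were left in that setting. For ascorbyl-palmitate (5) the count was 156, 155, 0 and 7 in the first 4 of these settings, and 0 without those 11 kidneys. For GDC-0941 (16) it was 185, 70, 0, 35 and 0, and 7 with RLE scaling. For KU0063794 (5) it was 64, 49, 0, 5 and 0. For enzastaurin (0) it was 27 with DESeq2 and 57 with no filter, and for AZD8055 (640) 1219 without those 11 kidneys. In liver with no filter it was 673 for AS-703026 over enzastaurin (281), 769 for AS-703026 over GDC-0941 (306) and 207 for enzastaurin over GDC-0941 (0), which had 19 with DESeq2. With the covariate, which cannot be told apart from AS-703026 in liver, the first 2 had 1 and 22. Retained or detained intron mRNAs called lower with AS-703026 (3) were 1 with RLE scaling, 9 with DESeq2, 7 with no filter, 1 with the covariate and 8 without AZD8055 library 4.

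Same-numbered libraries did not deviate together: the median correlation was -0.0197 in kidney, with 25 of 84 pairs over 0.1. With the replicate block the kidney counts were 0 for AS-703026, 15 for ascorbyl-palmitate, 27 for AZD8055, 2 for enzastaurin, 0 for GDC-0941 and 11 for KU0063794, and the retained or detained intron counts were 0 with AS-703026 and 0 with AZD8055. Of the 26 calls of named list genes in kidney 25 fell short of the threshold with the block, and of the 12 in liver 2 did. Only controls carry the numbers 5 and 6 in kidney, so with the block controls 5 and 6 add nothing to the contrasts with compounds. The loss of calls therefore cannot be read as an effect of blocking alone. In liver the block left 199, 262 and 0, and between tissues 9421 of 9494.

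Leaving out 1 library gave 0 to 244 genes for AS-703026, 0 to 130 for ascorbyl-palmitate, 25 to 842 for AZD8055, 0 to 60 for enzastaurin, 0 to 159 for GDC-0941 and 0 to 73 for KU0063794 in kidney. In liver it gave 124 to 359 for AS-703026 over enzastaurin, 148 to 456 for AS-703026 over GDC-0941 and 0 to 1 for enzastaurin over GDC-0941, and 9476 to 9722 between tissues. Retained or detained intron mRNAs ranged from 0 to 13 with AS-703026 and from 3 to 22 with AZD8055.

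Small differences that were not called changed sign. Khdc4 between tissues was 0.0042 with RLE, 0.0072 with DESeq2 and 0.0142 with no filter, and Crebzf 0.0836, 0.0877 and 0.0958. With the covariate Khdc4 and Crebzf in liver, AS-703026 over enzastaurin, were 0.1431 and 0.0384. With 1 library left out, Crebzf between tissues ran from -0.0968 to 0.0544. In liver, AS-703026 over enzastaurin ran from -0.4999 to 0.2155 for Malat1, -0.1555 to 0.034 for Khdc4 and -0.1639 to 0.0077 for Crebzf, AS-703026 over GDC-0941 from -0.142 to 0.1383 for Cpsf6 and -0.0558 to 0.17 for Khdc4, and enzastaurin over GDC-0941 from -0.1434 to 0.0003 for Ogt. Pim1 with AZD8055 ran from -0.1148 to 1.9293. Ogt between tissues was -0.26 and not called with no filter.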
